A study of Mus musculus with 8 samples.

Results

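The genes described here are 10 loci that encode transcription factors of blood stem and progenitor cells, namely Tal1, Lyl1, Lmo2, Gata2, Meis1, Hoxa9, Myb, Myc, Gfi1 and Gfi1b. All PU.1 and CEBPA ChIP-Seq peaks whose centre lay in the gene body or within 20 kb of it were taken, with gene bodies from the GENCODE annotation of mm10. This window rule uses no binding value, but the genes were chosen with earlier results of these data known. The 10 genes were a small part of the 21951 protein-coding genes, and their windows held 70 of the 67673 peaks in the 4 lists. The cells were X18.1.1, a murine acute myeloid leukaemia line that arose after irradiation, in which one Pu.1 allele is deleted and the other is mutated. A clonal line transduced with empty vector (PU.1−) was compared with a clonal PuER line (PU.1+), in which the MSCV-puro retrovirus delivers wild-type PU.1 fused to the ligand domain of the oestrogen receptor. Both had received 100 nM 4-hydroxytamoxifen (OHT), the ligand that activates the fusion, for 2 h, and both keep the mutant endogenous PU.1, which a PU.1 antibody does not tell from the fusion. Each condition is a single clone with 1 library per antibody, so differences between clones, between libraries and between PU.1 states cannot be told apart. No replicate check and no test was possible.

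Chromatin immunoprecipitation recovers the DNA that a protein occupies, and a peak is a stretch where the sequenced reads pile up. With the PU.1 antibody, 5288 peaks were listed for PU.1− and 15683 for PU.1+, and with the CEBPA antibody 26119 and 20583, each 400 bp wide and without a height, a score or a read count. Read depth is therefore unknown, a peak missing from a list is not a measured absence of binding, and a peak near a gene is not shown to act on it. The 95% intervals below were computed by the exact Clopper-Pearson method and reflect counting error alone.

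Blood stem and progenitor cells are held in their state by a set of transcription factors that bind together and regulate one another. TAL1 and LYL1 are related basic helix-loop-helix proteins that bind E-boxes, LMO2 is the LIM-domain bridge that joins them to the zinc finger factor GATA2, and GFI1 and GFI1B are zinc finger repressors. HOXA9 and MEIS1 are homeodomain partners that sustain myeloid leukaemias, and MYB and MYC drive progenitor growth. PU.1 is an ETS factor that recognises a GGAA core, prefers purines before it and directs myeloid differentiation, whereas CEBPA is a basic leucine zipper factor of granulocyte and monocyte precursors whose consensus is a palindrome.

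The sequences at the loci are given first. Of the 19 PU.1 peaks at the loci in PU.1+, 5 held the ETS sequence GGAAGT on either strand within the central 80 bp, all of them called in PU.1+ only. In 3 of them the purines GA preceded it (GAGGAAGT, the form that PU.1 prefers). The sequences below are from mm10, on the + strand, with GGAAGT or its reverse complement in capitals.
Tal1 downstream (chr4:115075699-115075778): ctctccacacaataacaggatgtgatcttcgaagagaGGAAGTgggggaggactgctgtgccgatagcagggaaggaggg
Gata2 upstream (chr6:88174379-88174458): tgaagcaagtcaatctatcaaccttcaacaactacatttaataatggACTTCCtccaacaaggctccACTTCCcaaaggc
Myb intron 5 (chr10:21151456-21151535): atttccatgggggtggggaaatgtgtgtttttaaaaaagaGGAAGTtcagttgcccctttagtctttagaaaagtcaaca
Gfi1 upstream (chr5:107729063-107729142): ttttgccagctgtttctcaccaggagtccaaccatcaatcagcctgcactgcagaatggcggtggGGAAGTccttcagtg
Gfi1b intron 1 (chr2:28619142-28619221): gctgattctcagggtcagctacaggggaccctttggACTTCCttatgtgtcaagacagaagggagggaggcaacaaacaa
The Tal1, Gata2 and Myb peaks are those with GAGGAAGT, and the Gata2 window holds GGAAGT at 2 positions. Across all PU.1 peaks of PU.1+, 43.5% held GGAAGT and 15.2% held GAGGAAGT in the same central stretch.

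CEBPA peaks at the loci were searched for TTGCNNAA on both strands, shown in capitals, as a relaxed form of the CEBP consensus. The searched word is not itself a palindrome: among its matches TTGCGCAA is one and TTGTGCAA is not. The examples below are peaks called in both lines, drawn from the PU.1− list for Gfi1 and the PU.1+ list for the others.
Tal1 intron 1 (chr4:115056979-115057058): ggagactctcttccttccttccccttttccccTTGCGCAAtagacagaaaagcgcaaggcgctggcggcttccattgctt
Lmo2 upstream (chr2:103947049-103947128): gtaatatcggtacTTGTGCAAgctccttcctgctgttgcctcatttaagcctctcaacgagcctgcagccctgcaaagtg
Myc upstream (chr15:61983566-61983645): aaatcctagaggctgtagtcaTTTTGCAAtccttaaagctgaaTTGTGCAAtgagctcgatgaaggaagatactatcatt
Gfi1 start (chr5:107726139-107726218): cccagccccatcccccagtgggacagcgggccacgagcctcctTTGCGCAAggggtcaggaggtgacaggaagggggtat
The Myc peak held the sequence at 2 positions, and the Tal1 and Gfi1 peaks held the same fully palindromic form. Among all CEBPA peaks, 35.6% of the PU.1− list and 38.2% of the PU.1+ list held TTGCNNAA in this central stretch.

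In PU.1+, a PU.1 peak covered the annotated start of Lyl1 and of Gfi1b, and neither promoter contained GGAAGT. The 250 bases before each start are shown from the RefSeq promoter set (GRCm38.p6, which matched 8 of the 10 genes), read in the direction of the gene, with every GGAA core on either strand in capitals. The last sequence is the central 80 bp of the Myc downstream peak where both factors were called in PU.1+ only, on the + strand, with the same capitals.
Lyl1 (chr8:84701207-84701456, + strand): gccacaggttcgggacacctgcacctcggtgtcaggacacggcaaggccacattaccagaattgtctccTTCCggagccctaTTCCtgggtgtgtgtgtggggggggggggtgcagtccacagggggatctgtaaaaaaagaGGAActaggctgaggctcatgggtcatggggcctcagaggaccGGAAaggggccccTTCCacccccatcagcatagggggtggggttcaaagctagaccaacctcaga
Gfi1b (chr2:28621983-28622232, − strand): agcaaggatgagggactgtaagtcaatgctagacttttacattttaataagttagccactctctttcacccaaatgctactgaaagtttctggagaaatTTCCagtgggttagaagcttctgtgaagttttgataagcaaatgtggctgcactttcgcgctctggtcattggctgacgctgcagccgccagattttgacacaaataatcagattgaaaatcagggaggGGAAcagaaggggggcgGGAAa
Myc downstream (chr15:61999737-61999816): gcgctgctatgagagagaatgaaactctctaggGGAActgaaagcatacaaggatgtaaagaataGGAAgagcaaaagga
The Lyl1 promoter held 5 GGAA cores and the Gfi1b promoter held 3. Among all 32851 promoters of the set, 93.4% held a GGAA core and 19.7% held GGAAGT in the 250 bases before the start, so a GGAA core is common to most promoters.

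PU.1 peaks were called at 8 of the 10 loci in PU.1+ and at 3 of 10 in PU.1−. For comparison, 41.4% of all protein-coding genes had a PU.1 peak within the same distance in PU.1+ and 23.7% did in PU.1−. The median PU.1 count per locus was 1.5 for PU.1+ against 0 for PU.1−, while the median protein-coding gene had 0 in both. CEBPA peaks were called at the same number of loci in each line, 8 of 10, beside 56.5% of all genes in PU.1− and 51.3% in PU.1+. Their median was 1 per locus in both lines, equal to that of all genes. The windows of the 10 loci were of usual length, with a median of 52.8 kb against 57.4 kb.

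Counted per 100 kb of window, the PU.1 density at the loci was 1.20 for PU.1− and 2.85 for PU.1+, against 0.367 and 0.936 around all protein-coding genes. The CEBPA densities were 3.45 and 3.00, against 1.69 and 1.34. The peaks were unevenly spread, since Gfi1 accounted for 20 of the 70 and Myb for 18, whereas Meis1 and Hoxa9 had 0. The genes were not drawn at random, so the densities are a description.

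**Figure D1:**
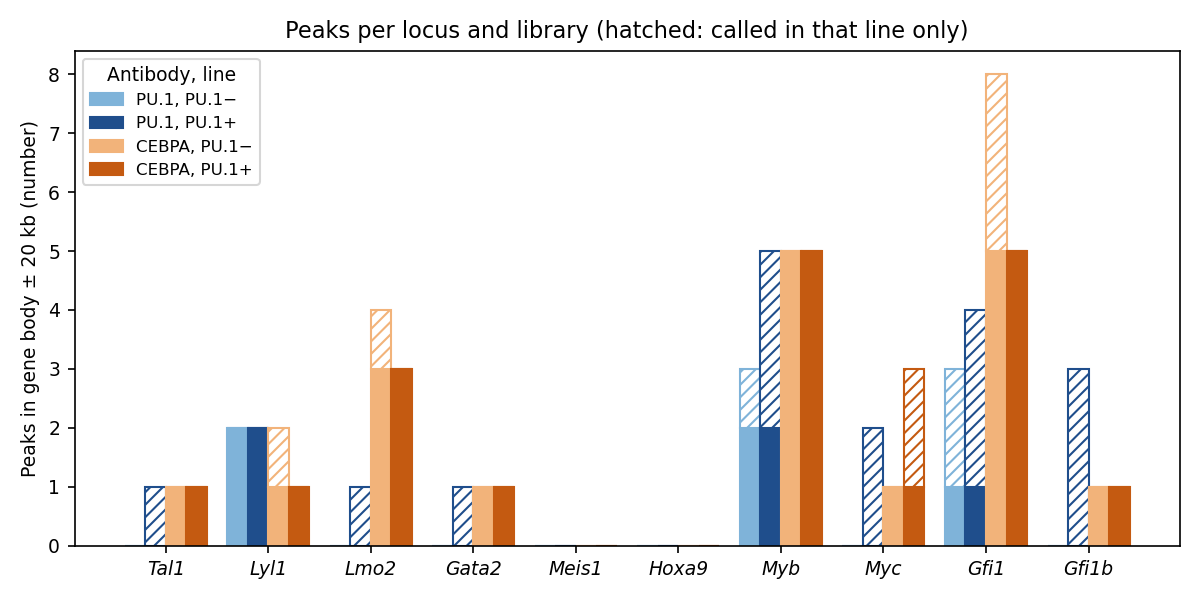
Number of peaks (vertical axis) in the gene body or within 20 kb at each of the 10 loci, with 1 bar per antibody and line. The hatched part of a bar counts peaks called in that line only and the solid part counts peaks that overlap a peak of the other line. Gfi1 reached 8 CEBPA peaks in PU.1−, Myb had 5 PU.1 peaks in PU.1+, and Meis1 and Hoxa9 had none.

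Of the 19 peaks of the PU.1 antibody in PU.1+, 14 overlapped no PU.1 peak of PU.1− (73.7%, interval 48.8 to 90.9%). The share among all PU.1 peaks of PU.1+ was 81.1%, inside that interval. They lay at 7 of the 10 genes, where 36.7% of all genes had such a peak. The PU.1− line had 3 of its 8 PU.1 peaks to itself, beside 43.8% of the whole list. These lay at Myb and Gfi1, which is 2 of 10 genes beside 13.7% of all genes.

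Most CEBPA peaks at the loci were called in both lines. Of the 23 peaks in PU.1−, 5 had no counterpart in PU.1+ (21.7%, interval 7.46 to 43.7%), beside 30.7% of the list, and they lay at Lyl1, Lmo2 and Gfi1, which is 3 of 10 genes beside 30.1% of all genes. Of the 20 CEBPA peaks in PU.1+, 2 had no counterpart in PU.1−, beside 12.1% of the list. Both were at Myc, so 1 of 10 genes had such a peak, beside 11.4% of all genes. The 18 CEBPA pairs called in both lines had centres a median of 11.5 bp apart, and the 5 PU.1 pairs 24 bp apart.

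Merging overlapping peaks of all lists gave 40 regions, of which 22 had PU.1, 25 had CEBPA and 7 had both in some line. The commonest combination was CEBPA in both lines without PU.1, in 13 regions. It was followed by PU.1 in PU.1+ alone, in 12 regions. Both factors in both lines were called in 2 regions, 1 in Myb and 1 downstream of Gfi1.

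**Figure D2:**
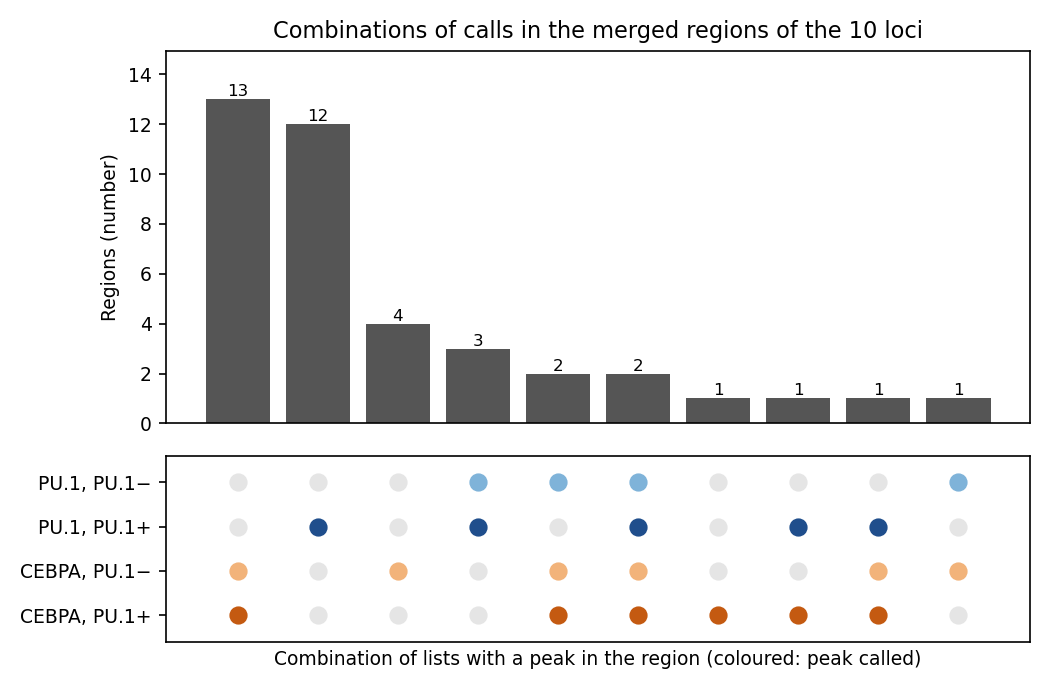
Number of merged regions (upper axis) for each combination of the 4 lists, marked by coloured dots in the lower panel. CEBPA in both lines without PU.1 (13 regions) and PU.1 in PU.1+ alone (12 regions) made up most of the 40 regions. The combinations were not counted over all regions of the lists.

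The stem cell complex genes Tal1, Lyl1, Lmo2 and Gata2 together had 2 PU.1 peaks in the PU.1− list and 5 in the PU.1+ list, and 8 and 6 CEBPA peaks. At Tal1 (chr4:115056426-115071755), the only PU.1 peak was called in PU.1+ at chr4:115075539-115075938. Its centre lay 19.3 kb after the gene's start and 4.0 kb beyond its end, and it carries the GAGGAAGT shown above. In PU.1−, the nearest PU.1 peak was 85.5 kb from the gene body. CEBPA was called in both lines in intron 1, 592 bp after the start in PU.1+ and 597 bp in PU.1−, at the TTGCGCAA sequence. PU.1 and CEBPA were called in separate regions of the Tal1 window.

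Lyl1 (chr8:84701457-84704715) was the complex gene whose PU.1 peaks were called in both lines. The peak at the start was centred at −59 bp in PU.1− and at −100 bp in PU.1+ (chr8:84701158-84701557), and a second was centred at −1.43 kb and −1.40 kb. Lyl1 had 2 PU.1 peaks in either line and 0 called in a single line. All its peaks also lie within Nfix, a nuclear factor I gene on the opposite strand that spans the locus, so they cannot be assigned to Lyl1 alone. CEBPA was called in both lines at 5.96 kb, in the Nfix 3′ UTR, and in PU.1− only at 11.1 kb.

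Lmo2 (chr2:103957986-103981878) had 4 CEBPA peaks in the PU.1− list and 3 in the PU.1+ list. Pairs common to both lines stood at about −12.0 kb, −10.9 kb and 9.0 kb, and the peak in coding exon 3 at 18.13 kb was called in PU.1− only. The sole PU.1 peak was called in PU.1+ (chr2:103969919-103970318). It was centred 12.1 kb into the gene and at −11 bp from the start of another Lmo2 transcript, a GC-rich stretch (63.25% GC, 40 CpG). No CEBPA peak overlapped it, and in PU.1− the PU.1 peak nearest to the gene body lay 544 kb past its 3′ end. The gene 4931422A03Rik, on the opposite strand, lies over this PU.1+ peak and over the CEBPA peaks at 9.0 kb and 18.13 kb.

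Gata2 (chr6:88193891-88207032) showed CEBPA at its start in both lines, centred at −185 bp in PU.1− and −220 bp in PU.1+. Neither peak held TTGCNNAA in its 400 bp. PU.1 was called in PU.1+ only at −19.5 kb (chr6:88174219-88174618), where GGAAGT occurred at 2 positions of the central 80 bp and 3 in the whole peak. The nearest PU.1 peak of PU.1− was 119 kb from the gene body. The PU.1+ peak at −19.5 kb was the peak closest to the edge of the 20 kb windows, and the first peaks outside it were CEBPA peaks 21.2 kb before Tal1.

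**Figure D3:**
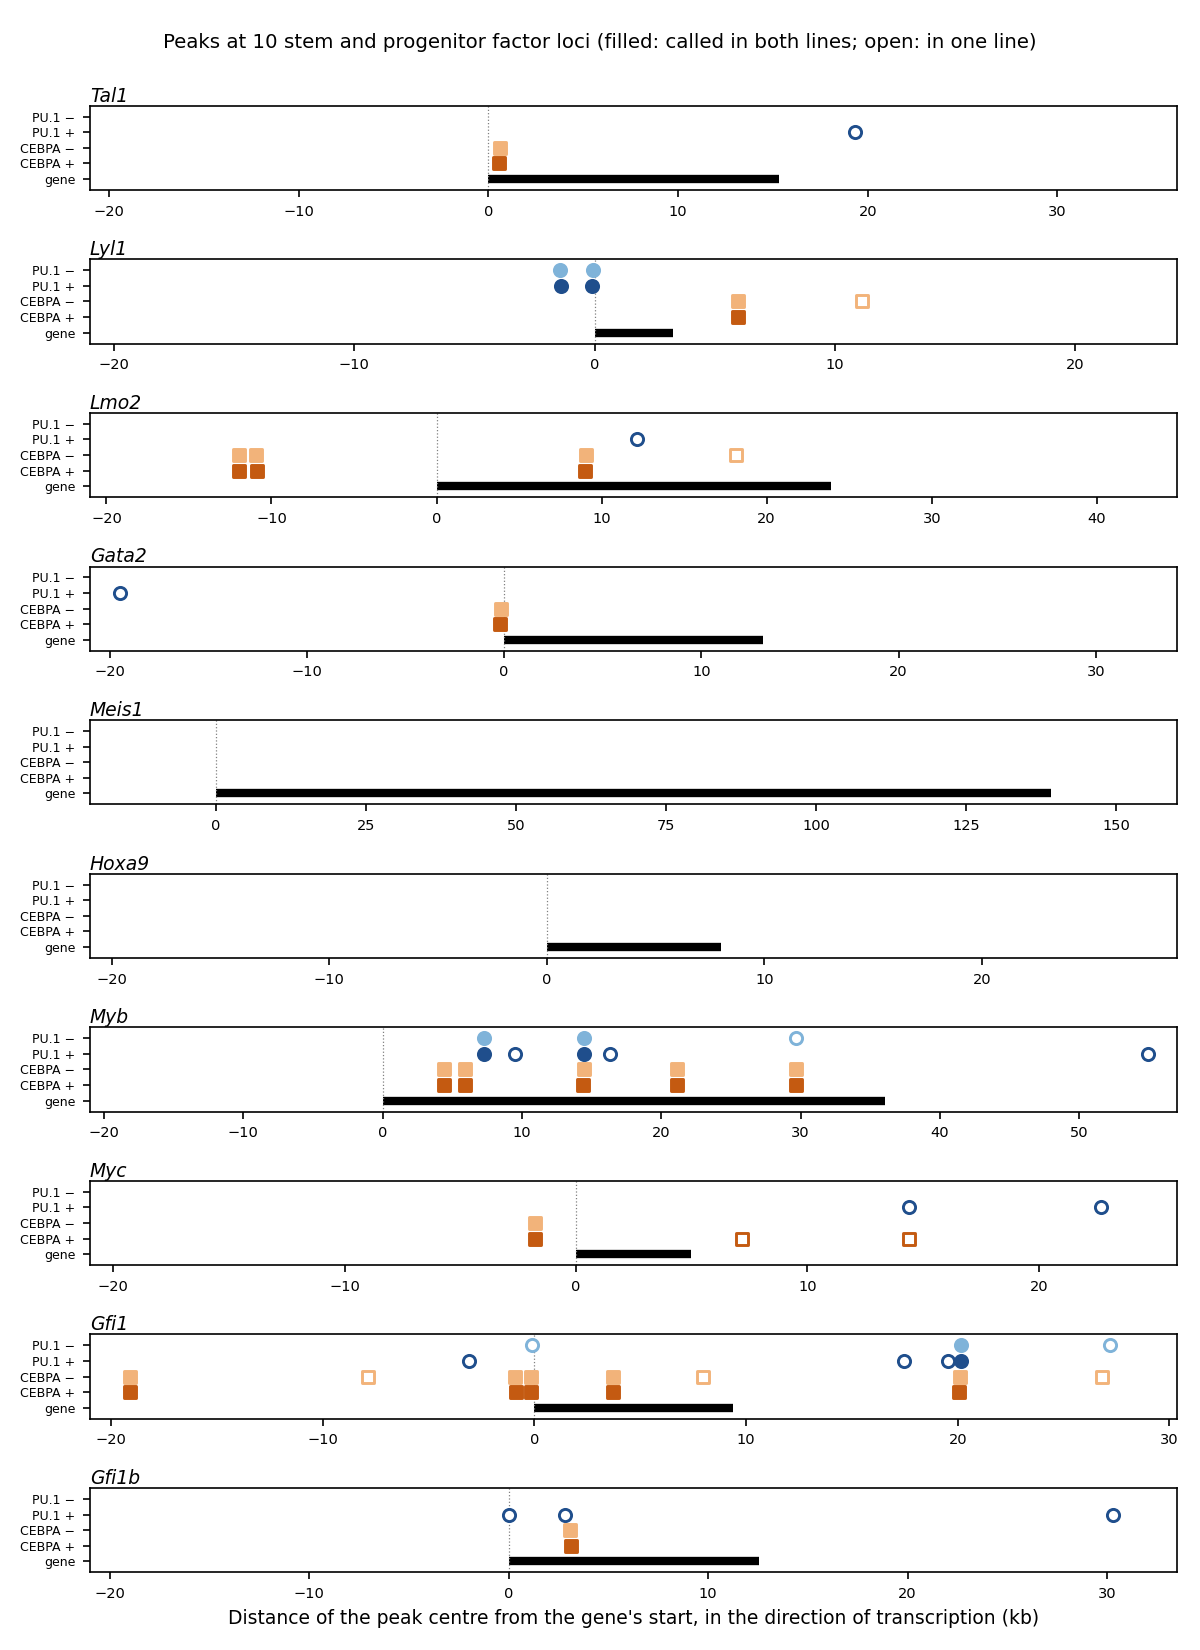
Positions of all peaks (horizontal axes, distance of the peak centre from the start of the gene in the direction of transcription, in kb) at the 10 loci, with 1 row per antibody and line and the gene body as a black bar. Filled symbols are peaks called in both lines and open symbols are peaks called in a single line. Of the 14 open PU.1 symbols in the PU.1+ rows, 9 lie outside the gene body, and the Lyl1 start peak is filled in both lines. The 20 kb flanks of both sides together are longer than the body of every gene but Meis1. The share outside gene bodies was not computed for all peaks, so no preference for distal sites is shown.

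The homeobox genes had no peak in any list within their windows. For comparison, 23.7% of all protein-coding genes had a PU.1 peak in PU.1− and 41.4% in PU.1+. For CEBPA, 56.5% had one in PU.1− and 51.3% in PU.1+, so windows without a peak of a given list are common. The share of genes without a peak in any list was not computed. Meis1 (chr11:18879817-19018985) has the longest body of the set, and its 179 kb window held 0 peaks. The nearest to the gene body were a CEBPA peak in PU.1− 839 kb away, a CEBPA peak in PU.1+ at 901 kb, and PU.1 peaks at 975 kb in PU.1+ and 1093 kb in PU.1−. Of 21768 protein-coding genes on chromosomes with peaks, 2.71% had their nearest peak of any list at least as far, and the median gene had one at 3.15 kb. Hoxa9 (chr6:52223100-52231089) had its nearest PU.1 peak 62.8 kb from the gene body in PU.1+ and 72.6 kb from it in PU.1−. Of the same genes, 21.3% were at least as far from any peak. The 7 other protein-coding genes overlapping the Hoxa9 window, among them Hoxa7 and Hoxa10, had no peak in the part that overlaps it.

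Myb (chr10:21124935-21160984) had 3 PU.1 peaks in PU.1−, 5 in PU.1+ and 5 CEBPA peaks in each line. In all, 2.71% of protein-coding genes had at least as many PU.1 peaks in the PU.1+ list, and 1.82% in the PU.1− list. None of these peaks lay at the principal start. Both lines shared PU.1 peaks in intron 3 at 7.3 kb and at 14.5 kb. The second lay in intron 8 of the longest transcript, which is an exon of a shorter one. The PU.1 peaks at both positions, and the intron 5 peak described below, also lie within the antisense RNA gene Gm26577. At 14.5 kb CEBPA was called as well in both lines, and the PU.1 and CEBPA centres were 23 bp apart in PU.1− and 80 bp apart in PU.1+.

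The PU.1 peaks at Myb that appeared in PU.1+ only were the GAGGAAGT peak in intron 5 at 9.49 kb, a peak at 16.3 kb and a peak 55.0 kb from the start, which is 18.9 kb past the end of the gene. None overlapped CEBPA. The PU.1 peak called in PU.1− only lay in intron 15 (chr10:21131112-21131511), centred 4 bp from a CEBPA peak that was present in both lines. All 5 CEBPA peaks of Myb were called in both lines, at 4.38 kb, 5.9 kb, 14.4 kb, 21.1 kb and 29.7 kb. At Myb, 3 of 5 PU.1 peaks in PU.1+ and 1 of 3 in PU.1− were called in a single line. The shares of the whole lists were 81.1% and 43.8%. For CEBPA, 0 of 5 peaks in either line were called in that line only, beside 12.1% of the PU.1+ list and 30.7% of the PU.1− list.

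Myc (chr15:61985391-61990374) had 2 PU.1 peaks in PU.1+ and none in PU.1−, at 14.4 kb and 22.7 kb after the start. The nearest PU.1 peak of PU.1− was 66.2 kb past the 3′ end of the gene body. CEBPA had 1 peak in PU.1− against 3 in PU.1+, and Myc was the only one of the 10 loci with CEBPA peaks called in PU.1+ only. The shared peak lies at −1.8 kb with the sequences shown above. The 2 CEBPA peaks called in PU.1+ only were centred 7.17 kb and 14.4 kb after the start, and the second (chr15:61999565-61999964) overlapped the PU.1 peak chr15:61999577-61999976 by 388 bp, with centres 12 bp apart. This was the only region of the loci where PU.1 and CEBPA were both called in PU.1+ and neither in PU.1−. Its central sequence held 2 GGAA cores and no GGAAGT, and neither new CEBPA peak held TTGCNNAA in its 400 bp. In the PU.1+ list, 53.7% of all CEBPA peaks held TTGCNNAA in the whole peak. Among all CEBPA peaks called in PU.1+ only, 42.6% overlapped a PU.1 peak of that line, and 20.02% of the shared CEBPA peaks did.

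Gfi1 (chr5:107716657-107726036) had the most peaks, with 3 PU.1 peaks in PU.1−, 4 in PU.1+, and 8 and 5 CEBPA peaks, respectively. At least as many CEBPA peaks in PU.1− were found at 2.00% of genes. Its start was the opposite case to Gfi1b: PU.1 was called in PU.1− only, at −119 bp (chr5:107725956-107726355), on top of a CEBPA peak called in both lines with centres 23 bp apart in PU.1−. The central 80 bp of that PU.1 peak held the TTGCGCAA of the CEBPA peak and no GGAA. A second CEBPA peak stood at about −0.9 kb in both lines. The PU.1 and CEBPA peaks at the start and at −0.9 kb also lie within A430072P03Rik, a processed-transcript gene on the opposite strand. They cannot be assigned to Gfi1 alone.

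Downstream of Gfi1, PU.1 and CEBPA were called in both lines 20.1 kb from the start (chr5:107705672-107706071 for PU.1 in PU.1+), with centres 59 bp apart in PU.1− and 89 bp apart in PU.1+. Another pair of PU.1 peaks was called nearby in PU.1+ only, at 19.5 kb and 17.4 kb, and one at −3.07 kb carried GGAAGT. At about 27 kb, in the long noncoding RNA gene 4930428O21Rik, PU.1 and CEBPA were both called in PU.1− only, overlapping by 44 bp. CEBPA was also called in PU.1− only in intron 6 at 7.95 kb and at −7.84 kb. The shared CEBPA peaks at 3.72 kb, in intron 3, and −19.1 kb, in the 3′ UTR of the neighbouring gene Evi5, complete the locus.

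Gfi1b (chr2:28609450-28621982) had 3 PU.1 peaks in PU.1+ and none in the other line, whose nearest was 69.2 kb past the 3′ end of the gene body. At least as many PU.1 peaks confined to the PU.1+ list were found at 6.80% of protein-coding genes. The first was centred 27 bp after the start (chr2:28621756-28622155), in the 5′ UTR, and no CEBPA peak overlapped it. The second, in intron 1 at 2.80 kb (chr2:28618982-28619381), overlapped the CEBPA peak of PU.1+ by 83 bp, with centres 317 bp apart, and that CEBPA peak was called in both lines. The third lay 30.3 kb from the start, beyond the gene's end. Tsc1, a tumour suppressor gene of the mTOR pathway, also reaches into this window.

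Of the 19 PU.1 peaks in PU.1+, 4 overlapped a CEBPA peak of that line (21.1%, interval 6.05 to 45.6%), beside 29.8% of all PU.1 peaks in PU.1+. In PU.1−, 5 of 8 did (62.5%, interval 24.5 to 91.5%), beside 57.6%. All 5 lay at Myb and Gfi1, whereas the intervals treat peaks as independent of their locus. Among the 14 PU.1 peaks called in PU.1+ only, 2 overlapped CEBPA of PU.1+ (Myc and Gfi1b), and in the whole list 23.2% of such peaks did. The intervals of the shares in both lines include the value for the whole list.

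**Figure D4:**
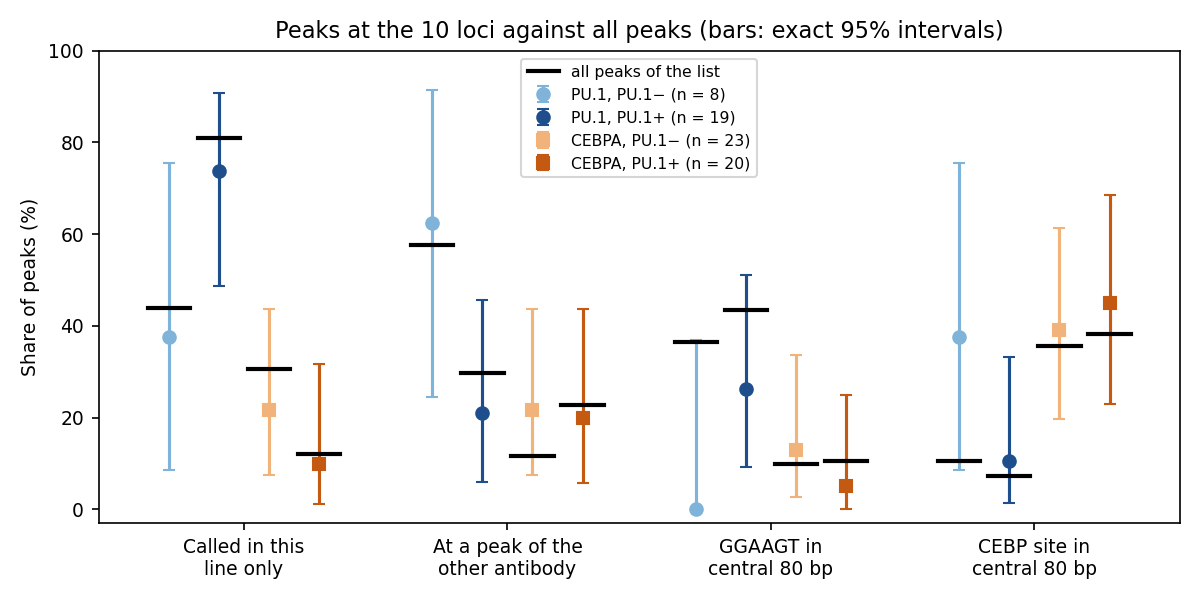
Shares of peaks at the 10 loci (points, with exact 95% intervals as bars for counting error) and of all peaks of the same list (black lines), in percent, for 4 properties. GGAAGT was found in 0 of 8 PU.1 peaks of PU.1− and in 26.3% of those of PU.1+, and the lines for all peaks were at 36.5% and 43.5%.

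GGAAGT lay in the central 80 bp of 26.3% (interval 9.15 to 51.2%) of the PU.1 peaks in PU.1+. In PU.1− it lay in 0 of 8 (interval up to 36.9%), against 36.5% of the list. The plain GGAA core was present in 17 of 19 PU.1 peaks in PU.1+ (89.5%), beside 91.1%. All 5 peaks with GGAAGT were among the 14 called in PU.1+ only, and 0 of the 5 shared peaks had it, whereas in the whole list 42.9% of the former kind and 46.1% of the latter did.

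PU.1 peaks of PU.1− held the CEBP sequence TTGCNNAA centrally in 3 of 8 cases (37.5%, interval 8.52 to 75.5%), beside 10.5% of the list, once in Myb and at 2 positions in Gfi1. Among CEBPA peaks it was central in 9 of 23 in PU.1− (39.1%, interval 19.7 to 61.5%) and in 9 of 20 in PU.1+ (interval 23.1 to 68.5%). In PU.1− all 9 were peaks called in both lines, and 0 of the 5 called in PU.1− only had it. Over the whole list, 38.9% of peaks called in both lines and 28.3% called in PU.1− only had it. For each sequence given with an interval, the interval included the value of the whole list.

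Sequences bound by GATA factors, by E-box factors such as TAL1 and LYL1, and by RUNX factors, whose genes are not among the 10, were counted over the whole 400 bp of the PU.1 peaks in PU.1+. A GATA sequence (AGATAA or TGATAA, both strands) was present in 42.1% (interval 20.3 to 66.5%), beside 31.9% of the list. An E-box of the form CAGATG or CAGCTG was present in 42.1%, beside 41.9%. RUNX sequences (TGCGGT or TGTGGT) were present in 31.6%, beside 39.7%. A match is a description of the letters, not of binding by those factors.

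A wider list of 31 related genes, comprising complex partners, Hox and Meis partners, Myc and Myb relatives, Gfi1 corepressors and other stem cell regulators, was counted in the same way. PU.1 peaks were called at 6 of the 31 in PU.1− and at 16 in PU.1+, and 15 had a peak called in PU.1+ only, beside 23.7%, 41.4% and 36.7% of all protein-coding genes. CEBPA peaks were called at 21 in PU.1− and 17 in PU.1+, with 15 genes holding a peak of PU.1− only and 3 a peak of PU.1+ only, beside 56.5%, 51.3%, 30.1% and 11.4% of all genes. Among the complex partners, 8 of 9 genes had a PU.1 peak in PU.1+, beside the 41.4% of all genes, and 8 of the 9 windows were longer than the median of 57.4 kb. The most PU.1 peaks called in PU.1+ only were at Tcf12, an E-protein partner of TAL1 and LYL1, with 9, at Runx1 with 7, at the ETS gene Fli1 with 4 and at the homeobox gene Hhex with 3. Tcf12 and Runx1 are long genes, with windows of 309184 bp and 264684 bp, so their counts are not comparable with those of shorter loci.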

How the data were processed

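PU.1 and CEBPA ChIP-Seq peak lists were used for 4 of the 8 samples. The samples for H3K27Ac and for control IgG were not analysed here. Per the labels and the paper's methods, the authors aligned the reads to the mm10 genome with Bowtie2 2.0.6, called peaks with MACS2 2.0.10 and deposited peak positions (start and end) without scores. The calling threshold is not given in the sources used here. The study's text also mentions a 0 h sample, while the labels give 2 h for both lines. Positions were converted to 1-based coordinates. Peaks of the same antibody, or of both antibodies, that overlapped by at least 1 bp were taken as shared. Gene bodies came from GENCODE vM21, and positions are given from the 5′ end of the gene body, and distances to the nearest peak outside a window from the nearer end of the gene body. Sequences were read from GRCm38 and searched on both strands for exact letters. The 10 genes, the wider list and the sequences were chosen with earlier results of these data known. All 10 genes are described, and from the wider list only the 4 with the most PU.1 peaks called in PU.1+ only were to be named. The classes were checked against bedtools 2.31.1 and on simulated peaks. Python 3.11.15, pandas 2.3.3, scipy 1.17.1 and samtools 1.23.1 were used.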

Additional observations from a re-analysis of the deposited data

How the results depend on the processing

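Of 46 alternatives, 40 kept each count within 1.5 times, or each share within its 95% interval. The intervals are wide and the alternatives reuse many of the same peaks, so staying inside is a weak check. Searching the whole peak raised GGAAGT in PU.1 peaks of PU.1+ from 26.3% to 47.4%. It raised TTGCNNAA in CEBPA peaks of PU.1− from 39.1% to 60.9%, and both stayed inside their intervals. The alternatives were an overlap of 50% of both peaks or centres within 100 bp, gene bodies alone or with 10 or 50 kb, bodies from protein-coding transcripts, any overlap with the window, and longer or shorter sequences searched. The other 6 follow. Restricting the windows to the gene bodies left 3 and 7 PU.1 peaks and 11 and 9 CEBPA peaks, in PU.1− and PU.1+ respectively. A window of 50 kb raised the CEBPA peaks in PU.1− to 40. Searching for the GGAA core in place of GGAAGT gave 89.5% of the PU.1 peaks in PU.1+, beside 91.1% of that whole list. Every GGAAGT match is also a GGAA match, so this share could not fall. A stricter peak threshold could not be tried, since the lists carry no scores. No paired analysis was possible because each antibody and line has 1 library. Unknown depth limits every statement on a peak that is missing from a list.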
